A study of Danio rerio with 16 samples.

Results

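The genes described are those of the splicing machinery that carry 4 family names: the SR proteins (srsf), the proteins of the small nuclear ribonucleoproteins or snRNPs (snrp), the SF3a and SF3b proteins of the U2 snRNP (sf3), and the heterogeneous nuclear ribonucleoproteins or hnRNPs (hnrnp). They were chosen by symbol alone, as every chromosomal row whose symbol begins with srsf, snrp, sf3a, sf3b or hnrnp, which gave 57 of the 29629 genes listed (17 srsf, 11 snrp, 9 sf3, 20 hnrnp). All 57 are protein coding on GRCz11 and stood in each of the 3 tables. Symbols spelled otherwise, such as snrnp70 and snrnp200, fall outside the rule and are not described. GRCz11 also lists 11 additional copies under these names on other scaffolds, of which 9 belong to a member; hnrnpc and snrpd3 are listed only as such a copy, so they are not among the 57.

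Sections of ovary from wild-type adult zebrafish, a pond-raised stock whose follicles were mostly at primary and early secondary growth, were cultured for 6 h at 28 °C, and poly-A RNA was sequenced from 4 libraries in each of 4 groups. PNX-20 (100 nM) is a phoenixin peptide, a putative ligand of SREB3, which belongs to the SREB family of orphan receptors. A8535 (5 µM) and PT-91 (5 µM) are small-molecule agonists of SREB1, another receptor of that family. The control received the solvent DMSO, which all groups share. The ovaries of a fish were cut into sections that went to different treatments, so 1 fish can have given libraries to several groups. The sources used here do not say which libraries these are. By the methods of the study, 4 sections of a fish went to separate wells, each with 1 of the 4 treatments. On that plan the libraries of 1 group come from different fish. P-values measure the spread between these libraries, and all libraries were taken as independent, with no pairing by fish.

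Splicing removes introns from pre-mRNA on the spliceosome, which is built from snRNPs and many further proteins. An snRNP holds a small nuclear RNA, in most cases within a ring of Sm proteins. SR proteins generally bind exons and recruit the spliceosome, whereas hnRNPs package pre-mRNA and often oppose splice site use. Growing oocytes transcribe heavily and lay down RNA-processing proteins for the early embryo, as is best known from the frog Xenopus.

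Reads assigned to genes numbered 10233870 to 15104959 per library, and 19047 to 23967 genes were detected. Oocyte markers were high in every library: 16 of 16 markers were found, and their summed CPM (counts relative to library size, scaled by TMM over all 16 libraries) was 12989 to 15787 with PNX-20, 8154 to 12411 with A8535, 9375 to 14684 with PT-91 and 13128 to 15799 in control. Markers of follicle cells (13 of 14 found) summed to 303 to 518 CPM with PT-91, against 255 to 585 CPM in control, and none of the found markers of any list was at 0 throughout. In whole tissue, fewer cells of a type and less RNA per cell cannot be told apart. A8535 replicate 2 and PT-91 replicates 1 and 2 had the most reads on mitochondrially encoded genes (3.95%, 4.08% and 3.98%) and the fewest genes detected (19047, 19706 and 19656).

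The splicing genes took 0.759% to 0.954% of all reads in a library. Levels between genes were compared per length, as RPKM (CPM per kilobase of the deposited gene length), averaged over the 16 libraries. Of the 57 genes, 50 lay above 5.11 RPKM, the median of the 19216 genes kept over all libraries. The snRNP proteins had the highest family median (168 RPKM), before SF3 (79.6 RPKM), the hnRNPs (38.7 RPKM) and the SR proteins (31.4 RPKM). The 5 highest were snrpb (862 RPKM), hnrnpabb (631 RPKM), snrpe (372 RPKM), snrpb2 (258 RPKM) and hnrnpa0l (247 RPKM). The snrpe mean was raised by single libraries, up to 1676 RPKM in PT-91 replicate 2. In control alone snrpe had a mean of 202 RPKM, below hnrnpa0l (232 RPKM) and snrpb2 (208 RPKM). The 5 lowest were hnrnpa0a (2.50 RPKM), srsf7b (1.81 RPKM), hnrnpa3 (0.36 RPKM), hnrnph3 (0.130 RPKM) and snrpf (0.0580 RPKM). These levels are of the chromosomal rows alone. For snrpf that row held at most 0.231% of the reads of gene and copy, and the copy on another scaffold had 35.1 to 250.5 CPM.

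**Figure D1:**
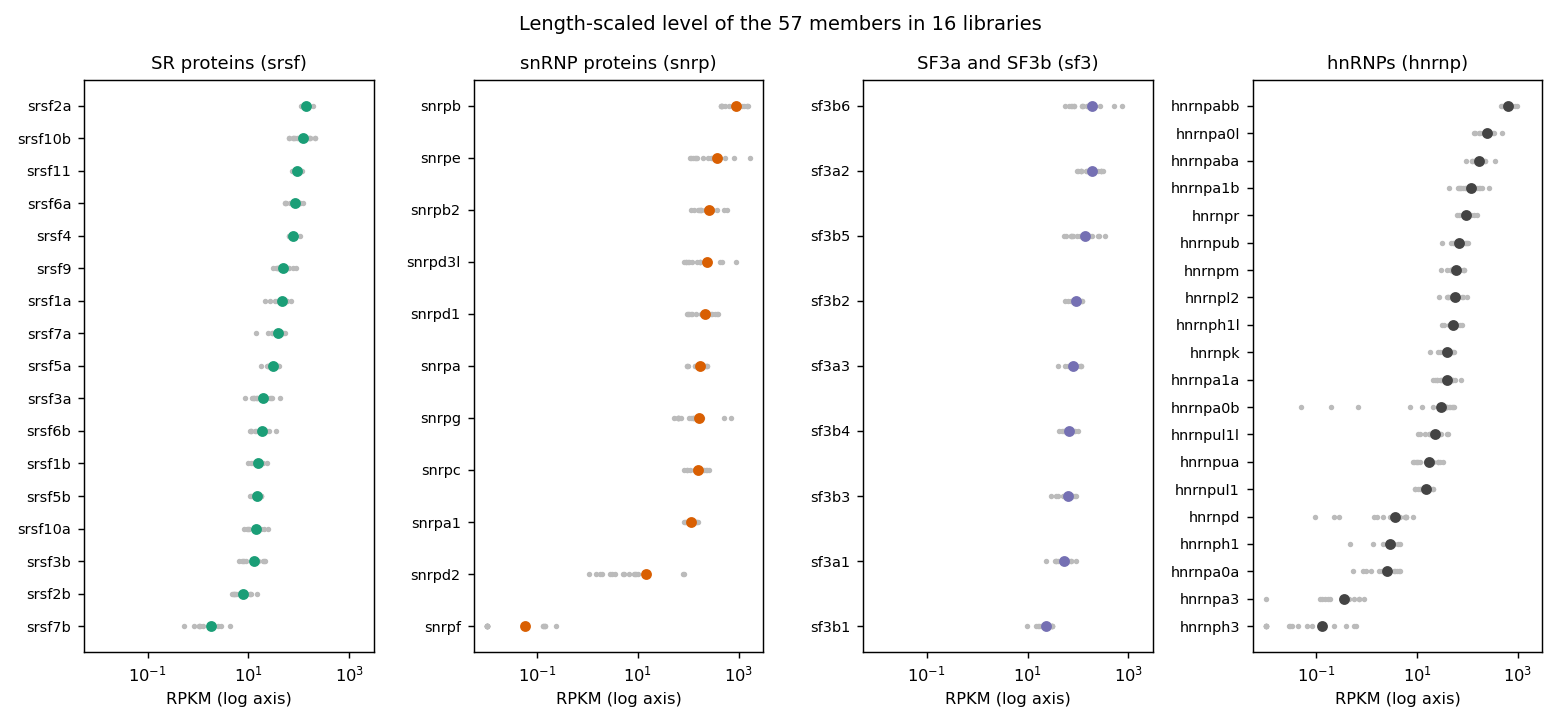
RPKM (log axis) of each of the 57 genes, by family: coloured points are means over 16 libraries, gray points single libraries, with values under 0.01 drawn at 0.01. Family medians run from 31.4 RPKM for the SR proteins to 168 RPKM for the snRNP proteins, and snrpf and hnrnph3 lie far to the left. Only chromosomal rows are drawn, and nearly all reads of snrpf were on its copy on another scaffold.

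In the following, libraries are given in the order of replicates 1 to 4 of each group, in CPM. The Sm proteins, which form the ring around most spliceosomal RNAs, begin with snrpb, the gene of SmB (chromosome 6, 57478337 to 57485411). snrpb had 1439, 750.2, 1416 and 442 CPM with PNX-20, 511, 887, 753 and 427 CPM with A8535, 1206, 973, 1115 and 434 CPM with PT-91, and 444, 1430.0, 436 and 617 CPM in control. The 4 groups overlapped, and snrpb did not pass the test in any treatment. The products of snrpa and snrpc belong to the U1 snRNP, which recognizes the 5' splice site. snrpc had 178, 174, 231 and 115 CPM with PNX-20, 127, 145, 135 and 82.3 CPM with A8535, 120.4, 96.9, 196 and 73.1 CPM with PT-91, and 82.3, 207, 126 and 149 CPM in control. The groups overlapped throughout for snrpc.

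The U2 proteins snrpa1 and snrpb2 form a pair that binds U2 RNA. snrpb2 had 279.7, 225, 321 and 173 CPM with PNX-20, 163, 545, 116 and 186 CPM with A8535, 390.3, 621, 250.3 and 184 CPM with PT-91, and 176, 289.8, 138 and 268 CPM in control. The highest values of snrpb2 were in A8535 replicate 2 and in PT-91 replicates 1 and 2. For snrpa1 the 16 libraries ranged over 90.8 to 174 CPM, with a mean of 127 CPM.

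SF3a and SF3b hold the U2 snRNP on the branch point of the intron. sf3a2 had 309, 229.8, 329 and 124 CPM with PNX-20, 151, 164, 216 and 106 CPM with A8535, 304, 159, 272 and 125 CPM with PT-91, and 103, 312, 123 and 195 CPM in control. All 4 groups overlapped for sf3a2. sf3b1, the large SF3b scaffold subunit, lay on chromosome 9 (32161623 to 32177156). sf3b1 had 94.5, 109, 182 and 178 CPM with PNX-20, 169, 99.96, 196 and 193 CPM with A8535, 62.2, 119.8, 152 and 195 CPM with PT-91, and 190.2, 126, 164 and 115 CPM in control. The lowest sf3b1 value was that of PT-91 replicate 1, which was the lowest library for 5 of the 9 SF3 genes. The remaining SF3 genes, sf3a1, sf3a3, sf3b2, sf3b3 and sf3b4, had means per length between 53.5 RPKM and 90.3 RPKM.

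Among the SR proteins, srsf2a, srsf10b and srsf11 stood highest per length. srsf2a had 345, 246, 249 and 208 CPM with PNX-20, 220.1, 204, 206 and 241 CPM with A8535, 216, 279.8, 260.1 and 217 CPM with PT-91, and 265, 287, 244 and 257 CPM in control. With A8535, all 4 libraries lay below all 4 control libraries (groups apart and lower: 1.05% of all genes tested with A8535), at a log2 fold change of −0.27 ± 0.19 (SE), unadjusted p = 0.192. srsf10b had 244, 155, 242 and 94.8 CPM with PNX-20, 110.3, 105, 194 and 74.2 CPM with A8535, 193, 141, 174 and 88.2 CPM with PT-91, and 75.1, 182, 97.9 and 90.5 CPM in control. srsf11 had 274, 215, 268 and 232 CPM with PNX-20, 254, 193, 294 and 203 CPM with A8535, 184, 215, 252 and 201 CPM with PT-91, and 256, 218, 279 and 203 CPM in control. The 16 libraries of srsf11 stayed within a narrow band, whereas the highest srsf10b values were in PNX-20 replicates 1 and 3.

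Many of these genes exist as a pair of a and b paralogs, and in most pairs the same paralog was higher per length in every library. SRSF1, a founding SR protein, had srsf1a above srsf1b in 16 of 16 libraries, with a median ratio of 2.86. The first paralog was also higher in 16 of 16 libraries for srsf2a over srsf2b (16.4), srsf6a over srsf6b (4.93), srsf7a over srsf7b (23.7) and srsf10b over srsf10a (8.67). The pairs srsf5a and srsf5b (median ratio 2.28 in favour of srsf5a, 16 of 16) and srsf3a and srsf3b (1.57 in favour of srsf3a, 14 of 16) depended on the length: by CPM, srsf5a was higher in 3 of 16 libraries and srsf3a in 0 of 16. The deposited length of srsf3b is 9611 bases, against 2078 bases for srsf3a. The protein match listed for srsf3b is a yeast transposon polyprotein (Gag-Pol), not SRSF3. Whether all reads of that row are those of SRSF3 was not tested. srsf1a had 152, 123, 105 and 57.5 CPM with PNX-20, 101, 46.1, 78.8 and 125 CPM with A8535, 102, 95.6, 96.3 and 108 CPM with PT-91, and 116, 89.0, 119 and 72.0 CPM in control. srsf1b had 49.0, 46.4, 65.8 and 32.3 CPM with PNX-20, 39.4, 37.8, 57.1 and 38.5 CPM with A8535, 48.5, 42.4, 51.6 and 48.4 CPM with PT-91, and 45.2, 49.3, 28.6 and 35.7 CPM in control. srsf3a had 89.8, 40.3, 60.4 and 18.1 CPM with PNX-20, 33.6, 35.9, 55.1 and 27.4 CPM with A8535, 29.6, 48.6, 59.2 and 26.0 CPM with PT-91, and 24.9, 31.3, 30.3 and 27.4 CPM in control. The 2 highest srsf3a values were in PNX-20 replicates 1 and 3, and the lowest was in PNX-20 replicate 4. srsf3b had 206, 113, 193 and 76.8 CPM with PNX-20, 116, 131, 122 and 63.1 CPM with A8535, 149, 126, 149.98 and 77.4 CPM with PT-91, and 72.9, 186, 86.9 and 127 CPM in control. Both SRSF3 genes overlapped between every treatment and control.

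Among the hnRNPs, hnrnpabb, hnrnpa0l and hnrnpaba stood highest per length. hnrnpabb had 927, 940.2, 985 and 1451 CPM with PNX-20, 1041, 761, 1009.6 and 1135 CPM with A8535, 998, 807, 1030.1 and 863 CPM with PT-91, and 1250.1, 864, 1585 and 1005 CPM in control. hnrnpaba had 332, 407, 237 and 435 CPM with PNX-20, 446, 267, 297 and 345 CPM with A8535, 184, 244, 277 and 272 CPM with PT-91, and 329, 297, 687 and 279 CPM in control. Control replicate 3 was the highest library for both genes, and it was the highest for 10 of the 18 hnRNP genes with at least 160 reads over all libraries. That library also had the lowest share of mitochondrial reads (0.190%).

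HNRNPA1, a splicing repressor that also shuttles mRNA, is encoded by hnrnpa1a (chromosome 11, 2236161 to 2250884) and hnrnpa1b (chromosome 23, 36306544 to 36309617). hnrnpa1b was higher per length in 16 of 16 libraries, by 2.04 to 4.05 times. Likewise hnrnpabb exceeded hnrnpaba (median ratio 3.94), hnrnpub exceeded hnrnpua (3.78) and hnrnph1l exceeded hnrnph1 (18.0), each in 16 of 16 libraries, and hnrnpul1l exceeded hnrnpul1 in 14 of 16 (1.59). hnrnpk had 92.7, 79.4, 102 and 99.2 CPM with PNX-20, 114, 63.3, 99.5 and 89.8 CPM with A8535, 39.7, 59.4, 94.8 and 91.2 CPM with PT-91, and 112, 71.5, 124 and 73.8 CPM in control. hnrnpk encodes a protein that binds C-rich RNA, and its lowest library was PT-91 replicate 1, the lowest for 9 of those 18 hnRNP genes.

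The comparison of each treatment with control asks whether these genes responded within 6 h. No splicing gene reached an adjusted p under 0.05 in edgeR's quasi-likelihood test in any treatment, among the 55 tested with PNX-20, the 54 with A8535 and the 55 with PT-91. The same was true of all genes tested (0% in each treatment). DESeq2, an alternative, put 1 splicing gene past that threshold, snrpd2 with PT-91, among 34 of the 17276 genes tested. Over all genes tested it put 19 past the threshold with PNX-20 and 3 with A8535. snrpf and hnrnph3 failed the filter on low counts each time, and hnrnpa3 failed it with A8535. Calls below are therefore at an unadjusted p under 0.05 and are not protected against the number of tests. The 95% interval of the log2 fold change lay within 1 in both directions for 28 genes with PNX-20, 36 genes with A8535 and 22 genes with PT-91.

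With PNX-20, 1 of 55 genes was called, snrpd2, which was higher (1.3% of all genes tested were called higher, and 2.51% in either direction). snrpd2 encodes SmD2 (chromosome 18, 40875884 to 40884081). snrpd2 had 4.86, 1.41, 6.26 and 56.9 CPM with PNX-20, 1.99, 6.20, 3.76 and 0.762 CPM with A8535, 6.63, 7.32, 3.62 and 60.7 CPM with PT-91, and 1.07, 2.56, 1.27 and 2.23 CPM in control. The mean with PNX-20 rested on replicate 4, at 56.9 CPM, and the other 3 libraries lay between 1.41 and 6.26 CPM. For snrpd2 with PNX-20 the log2 fold change was 3.27 ± 1.06 (SE), with an unadjusted p of 0.0120 and an adjusted p of 0.998 (edgeR). Without PNX-20 replicate 4 the log2 fold change was 1.22 ± 0.68 (unadjusted p = 0.104). The family medians were 0.38 for snRNP proteins, 0.26 for SR proteins, 0.16 for SF3 and −0.15 for hnRNPs, against −0.02 for all genes tested. These medians moved as single libraries were left out: that of the snRNP proteins ran from 0.17 (without PNX-20 replicate 3) to 0.63 (without control replicate 2), and that of the SR proteins from 0.12 (without PNX-20 replicate 1) to 0.39 (without PNX-20 replicate 4). The SF3 median ran from 0.02 (without control replicate 4) to 0.28 (without control replicate 3), and the hnRNP median from −0.32 (without PNX-20 replicate 4) to 0.05 (without control replicate 3). Of the 17 SR genes, 15 had a positive log2 fold change, as had 8325 of the 17118 genes tested, and no SR gene was called. The largest were srsf3a (0.88 ± 0.43, SE) and srsf10b (0.73 ± 0.37). Once PNX-20 replicate 4 was left out, srsf10b, srsf3a, sf3b5 and snrpd1 were called higher. In that fit 2.42% of all genes tested were called higher, and 6.17% in either direction. Leaving out control replicate 2 gave 6 calls, all higher: snrpb, snrpd2, srsf10b, srsf2b, srsf6b and srsf9 (2.24% of all genes tested were called higher in that fit).

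With A8535, 1 of 54 genes was called, snrpa, which was lower (0.719% of all genes tested were called lower, and 2.48% in either direction). snrpa encodes a U1 snRNP protein (chromosome 18, 35403042 to 35407695). snrpa had 244, 296, 259 and 205 CPM with PNX-20, 227, 127, 119 and 173 CPM with A8535, 209.7, 118, 290.0 and 171 CPM with PT-91, and 182, 307, 277 and 254 CPM in control. A8535 replicate 1 lay above the lowest control library, so the groups overlapped. For snrpa with A8535 the log2 fold change was −0.65 ± 0.28 (SE), with an unadjusted p of 0.0401 and an adjusted p of 0.999 (edgeR). The call was lost when any 1 of A8535 replicates 2, 3 and 4 or control replicates 2, 3 and 4 was left out. The family medians were 0.30 for snRNP proteins, 0.01 for SR proteins, −0.04 for SF3 and −0.16 for hnRNPs, against −0.04 for all genes tested. The snRNP median rested on A8535 replicate 2 and was −0.21 without it, and it was −0.16 in limma-voom. Without that library the hnRNP median was 0.02 and the SF3 median 0.09, so no family had a median whose sign held in every leave-out fit. The oocyte marker sum with A8535 (8154 to 12411 CPM) lay below that of every control library (13128 to 15799 CPM). Its part in the A8535 values was not tested.

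With PT-91, 7 of 55 genes (12.7%) were called, all of them higher, where 5.33% of all genes tested were called higher and 6.81% in either direction. The 7 genes were 5 Sm genes, snrpd1, snrpd2, snrpd3l, snrpe and snrpg, and the small SF3b subunits sf3b5 and sf3b6. None was called lower, where 1.49% of all genes tested were. The adjusted p was 0.712 for each. The family medians were 0.88 for snRNP proteins, 0.14 for SR proteins, −0.11 for SF3 and −0.45 for hnRNPs, against 0.00 for all genes tested. The snRNP median was 0.34 without PT-91 replicate 2, 0.29 with the trend of level on gene length removed, and 0.04 without PT-91 replicates 1 and 2. Of the Sm genes tested, snrpb was not called, at a log2 fold change of 0.40 ± 0.46 (SE).

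snrpd2 was the only one of the 7 whose PT-91 libraries all lay above all control libraries (groups apart and higher: 1.65% of all genes tested). The PT-91 values were 6.63, 7.32, 3.62 and 60.7 CPM, against 1.07, 2.56, 1.27 and 2.23 CPM in control. For snrpd2 with PT-91 the log2 fold change was 3.53 ± 0.94 (SE), with an unadjusted p of 0.00359 and an adjusted p of 0.712 (edgeR). In DESeq2 the adjusted p of snrpd2 was 0.0213. Without PT-91 replicate 4 the log2 fold change was 1.76 ± 0.63 (edgeR, unadjusted p = 0.0195).

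snrpe encodes SmE (chromosome 11, 37720575 to 37726201). snrpe had 187, 107, 233 and 72.3 CPM with PNX-20, 81.1, 439, 132 and 61.7 CPM with A8535, 284, 902, 189.5 and 77.0 CPM with PT-91, and 66.2, 159, 57.4 and 151 CPM in control. The highest value was in PT-91 replicate 2, and PT-91 replicate 4 lay within the control range. For snrpe with PT-91 the log2 fold change was 1.83 ± 0.70 (SE), with an unadjusted p of 0.0248 and an adjusted p of 0.712 (edgeR). snrpg (SmG, chromosome 23, 33957357 to 33962000) was dominated by the same library. snrpg had 110.4, 37.0, 75.0 and 31.2 CPM with PNX-20, 37.6, 307, 61.1 and 36.8 CPM with A8535, 71.7, 417, 81.7 and 42.7 CPM with PT-91, and 37.98, 71.7, 36.1 and 67.5 CPM in control. For snrpg with PT-91 the log2 fold change was 1.62 ± 0.68 (SE), with an unadjusted p of 0.0380 and an adjusted p of 0.712 (edgeR). Among the PT-91 libraries of snrpg, replicate 1 was at the level of control replicate 2 (71.7 CPM each), and replicate 2 stood alone.

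snrpd3l (chromosome 21, 13327527 to 13331030) and snrpd1 (chromosome 19, 1872810 to 1877751) encode Sm proteins of the D class. snrpd3l had 168, 113, 147 and 67.7 CPM with PNX-20, 78.0, 308, 96.9 and 57.8 CPM with A8535, 275, 569, 109 and 63.3 CPM with PT-91, and 57.5, 140.0, 52.5 and 112 CPM in control. For snrpd3l with PT-91 the log2 fold change was 1.57 ± 0.65 (SE), with an unadjusted p of 0.0349 and an adjusted p of 0.712 (edgeR). snrpd1 had 216, 134, 204 and 83.4 CPM with PNX-20, 103, 241, 134 and 74.7 CPM with A8535, 276, 262, 188 and 72.3 CPM with PT-91, and 66.3, 153, 82.8 and 128 CPM in control. In both genes PT-91 replicates 1 and 2 were high and PT-91 replicate 4 lay within the control range. For snrpd1 with PT-91 the log2 fold change was 0.95 ± 0.43 (SE), with an unadjusted p of 0.04999 and an adjusted p of 0.712 (edgeR). This call was lost in 18 of 23 alternatives, RLE scaling among them (unadjusted p = 0.0609).

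sf3b6 (chromosome 20, 35433192 to 35437936) encodes the SF3b subunit that touches the branch point adenosine, and sf3b5 (chromosome 13, 23897900 to 23901733) another small SF3b subunit. sf3b6 had 115, 97.9, 165 and 55.8 CPM with PNX-20, 64.8, 393, 93.2 and 57.2 CPM with A8535, 211, 559.6, 136 and 63.1 CPM with PT-91, and 50.9, 114, 42.5 and 91.6 CPM in control. For sf3b6 with PT-91 the log2 fold change was 1.78 ± 0.63 (SE), with an unadjusted p of 0.0172 and an adjusted p of 0.712 (edgeR). sf3b5 had 107, 62.5, 121 and 33.8 CPM with PNX-20, 48.2, 168, 83.7 and 46.0 CPM with A8535, 158, 216, 112 and 50.7 CPM with PT-91, and 46.5, 71.0, 37.5 and 72.1 CPM in control. PT-91 replicates 1, 2 and 3 lay above every control library for both genes, and replicate 4 did not. For sf3b5 with PT-91 the log2 fold change was 1.30 ± 0.43 (SE), with an unadjusted p of 0.0127 and an adjusted p of 0.712 (edgeR).

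**Figure D2:**
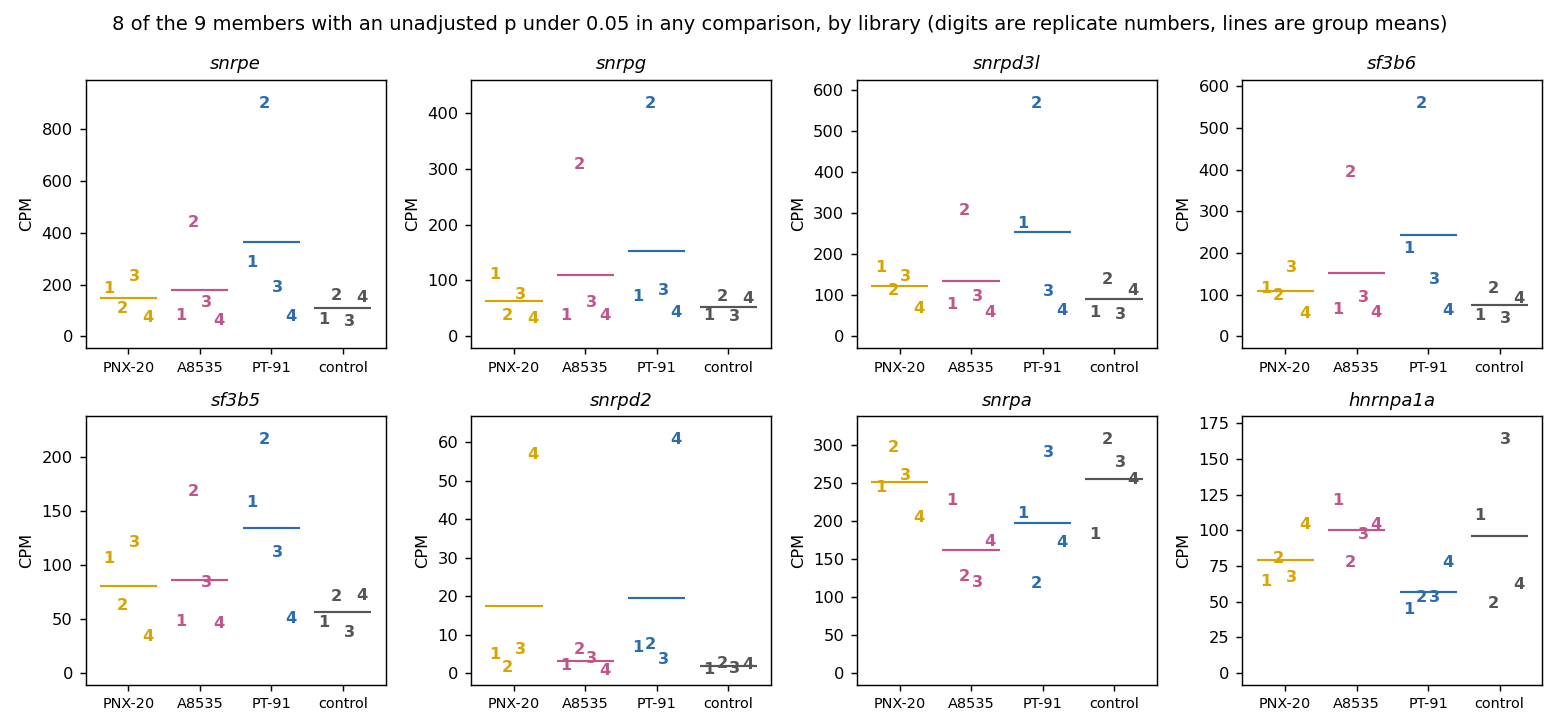
CPM of 8 of the 9 genes with an unadjusted p under 0.05 in any comparison, by group, with digits for replicate numbers and lines for group means. PT-91 replicate 2 stands at the top for snrpe (902 CPM), snrpg (417 CPM), snrpd3l (569 CPM), sf3b6 (560 CPM) and sf3b5 (216 CPM), and A8535 replicate 2 is the next highest for each of them.

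The 7 called genes are also short. They are all of the genes tested whose deposited length is under 800 bases, a limit chosen after the values were seen. Their median log2 fold change with PT-91 was 1.62, against −0.11 for the other 48 tested. Over all genes tested, those shorter than 800 bases had a median of 0.83, and 208 of 839 (24.8%) were called higher. With A8535 the same 7 genes had a median of 0.74, against 0.24 for all short genes, and with PNX-20 a median of 0.52, against 0.32 for all short genes. snrpb (963 bases), snrpc (890 bases) and snrpb2 (1048 bases) are the next shortest snRNP genes, at −0.16 for snrpc, 0.40 for snrpb and 0.80 for snrpb2 with PT-91. In a further fit, a trend with gene length was removed within each library. It was taken from the log2 CPM of each gene relative to the mean of that gene over the libraries fitted. With it removed, sf3b5 (0.53), sf3b6 (0.97), snrpd2 (3.59) and snrpe (0.80) were called. snrpd3l (0.66), snrpg (0.60) and snrpd1 (0.29) were not. In that fit 3.81% of all genes tested were called higher. The snRNP median was then 0.29 with PT-91, 0.14 with A8535 and 0.14 with PNX-20.

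**Figure D3:**
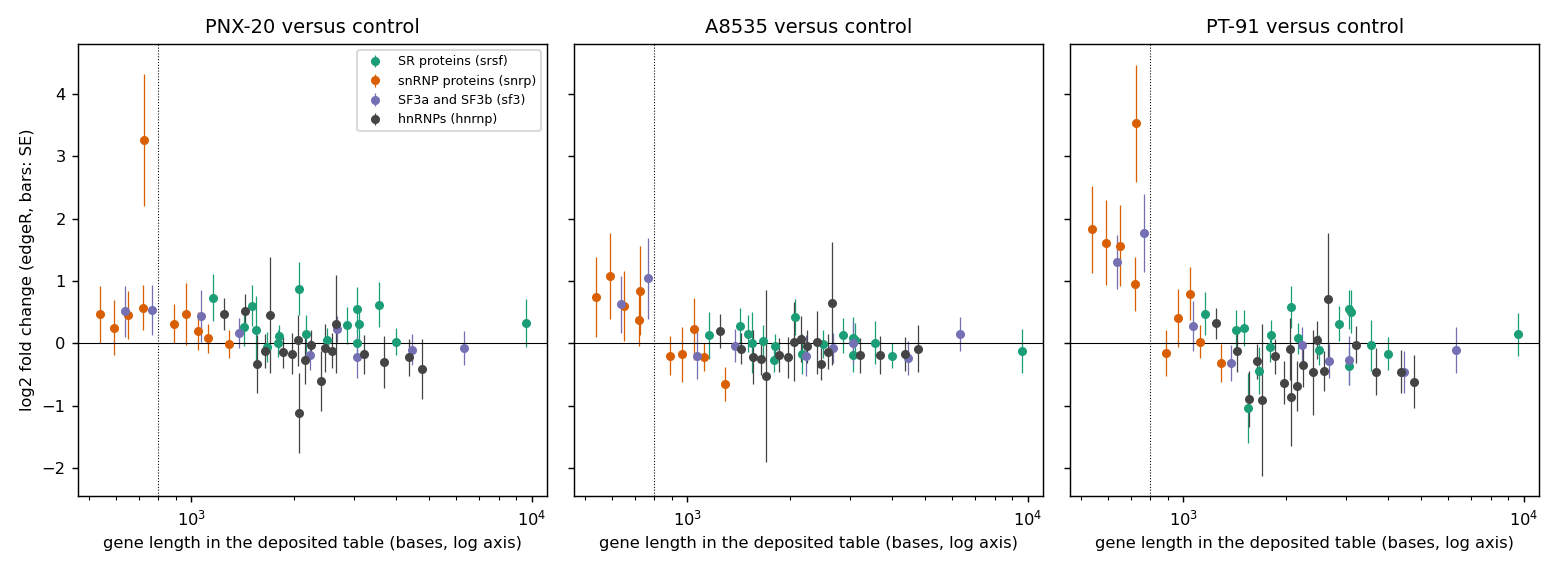
Log2 fold change (edgeR, bars are SE) of each gene tested, against its deposited length (bases, log axis), in PNX-20, A8535 and PT-91 versus control. The genes left of the dotted line at 800 bases are above 0 in each panel, with medians of 0.52, 0.74 and 1.62, and snrpd2 is the highest with PNX-20 and PT-91.

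The level of the short genes moved with the mitochondrial share of the libraries. The summed CPM of the 8 genes shorter than 800 bases was 1862 in A8535 replicate 2, 1283 in PT-91 replicate 1 and 2932 in PT-91 replicate 2, against 310.2 to 951 in the other 13 libraries. In those 3 libraries all 974 kept genes shorter than 800 bases took 13.2% to 16.6% of the CPM of the genes kept, against 3.85% to 9.97% in the others. Mitochondrially encoded genes were not excluded from this sum, so it is not independent of the mitochondrial share. Without PT-91 replicates 1 and 2, a choice made after seeing the data, 1.72% of all genes tested were called, and 2 splicing genes. snrpd2 was higher at 4.15 ± 0.95 (SE), and hnrnpa3 was lower. The 2 PT-91 libraries then left, replicates 3 and 4, had 3.62 and 60.7 CPM of snrpd2, so its mean rested on replicate 4. For hnrnpa3 they held 4 and 3 reads, too few to compare. The log2 fold changes of the other 6 were then 0.53 for sf3b5, 0.42 for sf3b6, 0.30 for snrpe, 0.28 for snrpd1, 0.23 for snrpg and −0.07 for snrpd3l. The count also turned on single libraries. Without PT-91 replicate 2 only snrpd2 was called (3.37% of all genes tested were called in that fit), and the log2 fold changes were 0.92 for sf3b5, 0.88 for sf3b6, 0.77 for snrpe, 0.75 for snrpd1, 0.74 for snrpd3l and 0.30 for snrpg. There were 3 calls without control replicate 1, 2 without control replicate 3 and 12 without control replicate 2. In those fits 4.41%, 2.79% and 8.02% of all genes tested were called. The oocyte marker sum had a median of 11386 CPM with PT-91, against 14435 CPM in control. The endothelium markers (8 of 8 found) summed to 24.8 to 32.2 CPM with PT-91, against 30.5 to 48.6 CPM in control. Those of leukocytes (8 of 8 found) had a median of 50.9 CPM with PT-91, against 24.7 CPM in control, those of smooth muscle (5 of 6 found) 85.7 CPM, against 48.8 CPM, and those of stroma (8 of 9 found) 49.5 CPM, against 31.7 CPM, all with overlapping ranges. The other treatments also lay above control in these medians. With PNX-20 they were 61.7 CPM (leukocytes), 63.8 CPM (smooth muscle) and 58.8 CPM (stroma). With A8535 they were 50.6, 107.9 and 54.7 CPM in the same order. The part that the mitochondrial share, the number of detected genes and these cell type markers have in the PT-91 result was not tested.

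**Figure D4:**
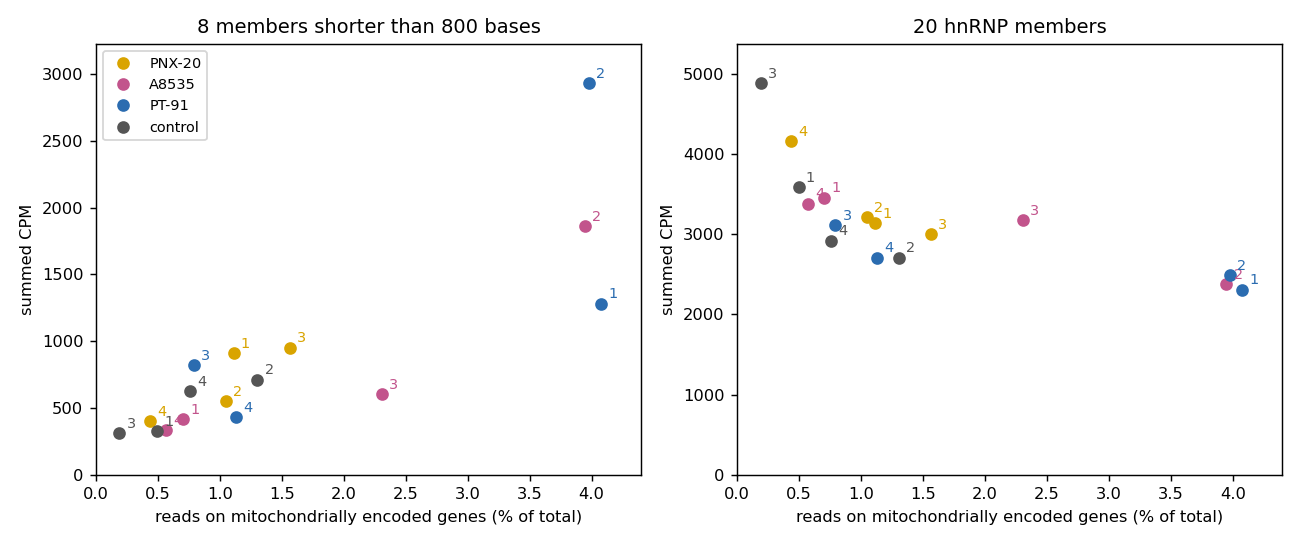
Summed CPM of the 8 genes shorter than 800 bases (left) and of the 20 hnRNP genes (right), against the percent of reads on mitochondrially encoded genes, with 1 point per library and the replicate number beside it. A8535 replicate 2 and PT-91 replicates 1 and 2, near 4% mitochondrial reads, hold the 3 highest sums on the left (1862, 1283 and 2932 CPM), and control replicate 3 holds the highest hnRNP sum (4880 CPM).

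The hnRNPs lay on the other side with PT-91. Their median log2 fold change was −0.45, and 3 of 19 were positive, where 8670 of the 17276 genes tested were. None was called in either direction, where 6.81% of all genes tested were. Without control replicate 2, hnrnpa1a (−0.91 ± 0.38, SE) and hnrnpa1b (−1.14 ± 0.43) were called lower, as were 2.44% of all genes tested. The summed hnRNP level was 2654 ± 345 CPM (SD, n = 4) with PT-91, 3094 ± 492 CPM with A8535, 3375 ± 527 CPM with PNX-20 and 3522 ± 980 CPM in control. Without control replicate 3, the library with the highest sum, the hnRNP median with PT-91 was −0.26, and over all libraries left out in turn it ran from −0.58 to −0.26. Without PT-91 replicates 1 and 2 it was −0.24. The median was −0.30 with gene and copy summed, −0.22 in limma-voom and −0.51 in a fit of all 16 libraries. That fit of all 16 libraries called hnrnpa1a (−0.75 ± 0.33, SE), hnrnpa1b (−0.96 ± 0.44) and hnrnpaba (−0.70 ± 0.31) lower. It called 2.24% of all genes tested lower. With no filter hnrnpa1b was called lower (−0.98 ± 0.43), as were 2.68% of all genes tested. Of the SR genes, srsf7b was the only one whose PT-91 libraries all lay below control (groups apart and lower: 1.13% of all genes tested). Its values were 0.819, 1.66, 1.28 and 1.98 CPM with PT-91, against 2.81, 3.84, 3.12 and 2.68 CPM in control, at −1.04 ± 0.57 (SE, edgeR, unadjusted p = 0.0950).

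PT-91 and A8535 were given at the same dose and time. This 1 pair of compounds was compared directly, in a fit of all 16 libraries. Of 55 genes, 2 were called, 1 higher and 1 lower with PT-91 (2.26% of all genes tested were called, 1.52% higher and 0.739% lower), and neither passed adjustment (0% of all genes tested did). PNX-20 was given at another dose, so its values stand only beside those of the agonists.

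hnrnpa1a was lower with PT-91 than with A8535. hnrnpa1a had 44.6, 53.1, 52.7 and 77.5 CPM with PT-91, 121, 77.4, 97.2 and 104 CPM with A8535, 63.9, 80.4, 67.0 and 104 CPM with PNX-20, and 110.1, 48.8, 163 and 61.7 CPM in control. The highest PT-91 library and the lowest A8535 library nearly coincided, at 77.5 and 77.4 CPM. For hnrnpa1a with PT-91 against A8535 the log2 fold change was −0.81 ± 0.33 (SE), with an unadjusted p of 0.0271 and an adjusted p of 0.967 (edgeR). Its paralog had a difference of the same sign that was not called. hnrnpa1b had 68.0, 109.98, 139 and 161 CPM with PT-91, 240.5, 114, 179 and 263 CPM with A8535, 127, 198, 102 and 305 CPM with PNX-20, and 274, 104, 406 and 146 CPM in control. For hnrnpa1b with PT-91 against A8535 the log2 fold change was −0.74 ± 0.44 (SE), with an unadjusted p of 0.113 and an adjusted p of 0.967 (edgeR).

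snrpd2 was higher with PT-91 than with A8535. Its libraries had 6.63, 7.32, 3.62 and 60.7 CPM with PT-91, against 1.99, 6.20, 3.76 and 0.762 CPM with A8535. For snrpd2 with PT-91 against A8535 the log2 fold change was 2.61 ± 1.08 (SE), with an unadjusted p of 0.0277 and an adjusted p of 0.967 (edgeR). Without PT-91 replicate 4 the difference was 0.81 ± 0.96 (unadjusted p = 0.411). For 27 of the 55 genes the 95% interval of the difference between the agonists lay within 1 on the log2 scale in both directions, and for 46 it lay within 2. The snrpe difference was 1.02, with an interval of −0.47 to 2.52, and that of sf3b1 was −0.31, with an interval of −1.03 to 0.41. Without A8535 replicate 2, the A8535 library of the most mitochondrial reads, 9 of 56 genes were called, where 7.72% of all genes tested were.

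Several of the genes are also listed in the assembly as a copy on another scaffold, under the same gene ID with a suffix. The copy took a different share of the reads in different libraries. Whether a copy is a separate gene or a second version of the same locus was not tested. hnrnpa0b and hnrnpa0l, genes of AU-rich RNA binding proteins, lie 2063 bases apart on chromosome 14. In A8535 replicate 4, PT-91 replicate 4 and control replicate 1, hnrnpa0b had 0.0847, 1.16 and 0.330 CPM, while its copy had 142, 127 and 152 CPM. In the other 13 libraries hnrnpa0b had 12.0 to 93.2 CPM, and its share of the reads of gene and copy was at least 15.8%, against at most 0.899% in those 3. hnrnpa0l had 679, 398, 457 and 367 CPM with PNX-20, 329, 307, 371 and 243 CPM with A8535, 191, 303, 481 and 204 CPM with PT-91, and 249.7, 406, 381 and 297 CPM in control.

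The same 3 libraries had the lowest share for hnrnpa0l (at most 70.6%, against 78.8% or more elsewhere) and for hnrnpd, on chromosome 10, a gene of an mRNA decay factor (at most 7.2%, against 19.6% or more). No PNX-20 library was among them. Summed over gene and copy, hnrnpa0b varied from 76.4 to 152 CPM over the 16 libraries. On the chromosomal row alone its log2 fold changes had wide errors, at −0.91 ± 1.21 (SE) with PT-91, −0.52 ± 1.38 with A8535 and 0.45 ± 0.93 with PNX-20. The sources used here do not say whether libraries that share this pattern come from 1 fish.

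**Figure D5:**
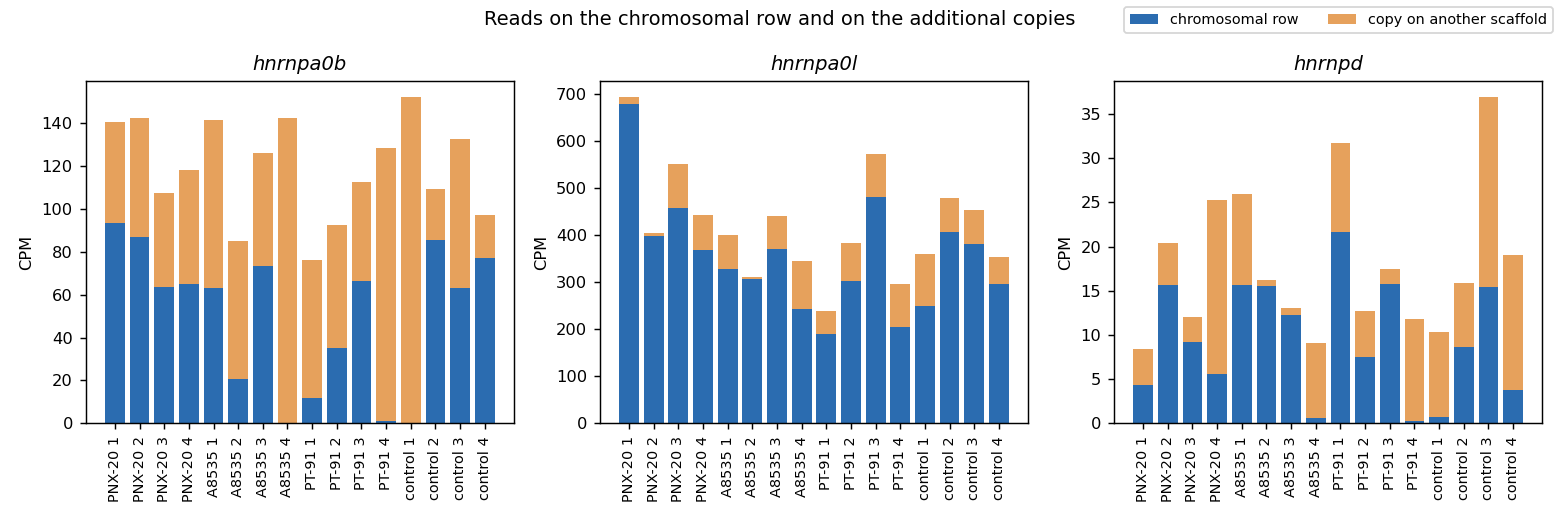
CPM of hnrnpa0b, hnrnpa0l and hnrnpd in each library, split into reads on the chromosomal gene (blue) and on its copies on other scaffolds (orange). In A8535 replicate 4, PT-91 replicate 4 and control replicate 1 the hnrnpa0b bar is almost wholly orange, with 142, 127 and 152 CPM on the copy, and those libraries also have the smallest blue share of hnrnpd.

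snrpf, the gene of SmF, had at most 0.151 CPM on its chromosomal row, but its copy had 35.1 to 250.5 CPM. The copy was highest in PT-91 replicates 1 and 2 (250.5 and 249.8 CPM) and A8535 replicate 2 (199 CPM), against 35.1 to 79.2 CPM in control. The same 3 libraries were the highest for snrpd1, snrpd3l and snrpe, but not for snrpg or snrpd2. With gene and copy summed, snrpf was called higher with PT-91, at 1.47 ± 0.57 (SE, edgeR, unadjusted p = 0.0254, adjusted p = 0.649). The count stayed at 7 because snrpd1 was no longer called, and 5.27% of all genes tested were called higher in that fit. Over the 16 libraries the chromosomal share ranged from 2.098% to 95.4% for hnrnpd and from 56.0% to 88.9% for srsf1a.

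In edgeR, the median biological coefficient of variation of the splicing genes was 0.368 in the PNX-20 comparison, against 0.524 for all genes tested. It was 0.360, against 0.536, in the A8535 comparison and 0.393, against 0.557, in the PT-91 comparison. A comparison at equal abundance was not made.

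Other genes of the splicing pathway were counted by lists chosen with earlier results of these data known. With PT-91, 4 of 13 Lsm genes, which encode relatives of the Sm proteins, were called higher (lsm1, lsm3, lsm5 and lsm6) and none lower, at a median of 0.55. Over all genes tested 5.33% were called higher, and 24.8% of those shorter than 800 bases, as lsm3, lsm5 and lsm6 are. Their log2 fold changes ran from 1.31 for lsm1 to 2.02 for lsm5, and the genes of the list are short, with a median length of 880 bases. Of 16 genes for the SMN complex, which loads Sm rings onto RNA, and for snRNP import, gemin2 alone was called, at 1.25 ± 0.43 (SE). Among 65 other spliceosome genes, ppih, ppil1 and txnl4a were higher and crnkl1 and cwc22 lower, at a median of −0.08. Of 24 SR kinase and SR-related genes none was called, at a median of −0.40, and of 43 other splicing regulators khsrp was lower (−1.02 ± 0.40), where 1.49% of all genes tested were called lower.

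With A8535, khsrp was lower and mbnl1 and qki2 were higher among 43 other regulators, and no gene of the other 4 lists was called (1.76% of all genes tested were called higher and 0.719% lower). With PNX-20, prpf38a was lower (−1.87 ± 0.76) among 64 spliceosome genes, and nothing else on the 5 lists was called (1.3% of all genes tested were called higher and 1.21% lower). None of these genes passed adjustment.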

How the data were processed

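Poly-A RNA of cultured zebrafish ovary was measured in 4 libraries per group, from stranded paired-end libraries. Per the study's methods and the labels, the authors used fastp for cleaning, HISAT2 2.0.5 for alignment to GRCz11 and featureCounts 1.5.0-p3 for the deposited read counts, and only these counts were used. The deposited FPKM values, the signal values (counts over the DESeq2 size factor of the authors), and the log2 fold changes and p-values that the authors computed in DESeq2 (their own comparisons) were not used. Library totals of 10233870 to 15104959 reads set the precision of rare genes, and the spread between libraries that of the others.

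Members and lists were chosen with earlier results of these data known. Counts were filtered with filterByExpr, scaled by TMM and tested with edgeR 4.0.16 (R 4.3.3, robust quasi-likelihood F test), each treatment against control on 8 libraries and PT-91 against A8535 on all 16 (19216 genes kept), with Benjamini-Hochberg adjustment over all genes tested. The SE is the log2 fold change over the square root of F. Scripts were tested on simulated data. Alternatives were DESeq2 1.42.0, limma-voom 3.58.1, other scalings, filters and fits, a replicate block, a length trend removed, copies summed and libraries left out. Named genes were the members called (up to 4 in each direction and comparison) with their paralogs, the 3 highest per length in each family, and members set by role. srsf7b, the hnrnpa0 genes, hnrnpd and others given by single values were chosen after their values were seen. Replicate numbers were not taken to pair the libraries.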

Additional observations from a re-analysis of the deposited data

Results flagged for a closer look

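In 10 of 104 sets of 4 libraries, 1 library stood far from the other 3 by Dixon's ratio. Chance marks about 1 in 20 independent sets, but these genes include those named for their calls and move together across libraries, so the count is not to be read against that share. A8535 replicate 2 did so for sf3b6 (393 CPM), snrpb2 (545 CPM), snrpd3l (308 CPM) and snrpg (307 CPM), and PT-91 replicate 2 for snrpg (417 CPM). snrpd2 stood apart in PNX-20 replicate 4 (56.9 CPM) and in PT-91 replicate 4 (60.7 CPM). The others were hnrnpabb in PNX-20 replicate 4 (1451 CPM), srsf1b in A8535 replicate 3 (57.1 CPM) and hnrnpaba in control replicate 3 (687 CPM).

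The effect of PT-91 differed from that of A8535 in the direct edgeR test, at an unadjusted p under 0.05, for hnrnpa1a (log2 difference −0.81) and snrpd2 (2.61). Neither passed adjustment.

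Copies on other scaffolds, which are outside the main tests, had over 3 times the highest control level in some libraries. For the copy of snrpd3, a further Sm gene, this was 88.1 CPM in PNX-20 replicate 4, 93.8 CPM in A8535 replicate 3, 327 CPM in PT-91 replicate 1 and 58.4 CPM in PT-91 replicate 2, against at most 16.8 CPM in control. For the copy of snrpf it was 250.5 CPM in PT-91 replicate 1 and 249.8 CPM in PT-91 replicate 2, against at most 79.2 CPM in control.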

How the results depend on the processing

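No splicing gene passed adjustment in any comparison under any edgeR or limma setting. DESeq2 gave 1 splicing gene, snrpd2 with PT-91, where 34 of the 17276 genes tested passed. The counts at an unadjusted p under 0.05 moved as follows. With PNX-20 (1 gene), limma-voom gave 0, a fit of all 16 libraries gave 2, and leaving out 1 library gave 1 to 6. The first 2 called 3.77% and 2.28% of all genes tested, and leaving out 1 library called 2.04% to 6.17%. With A8535 (1 gene), upper quartile or library size scaling, no filter and limma-voom each gave 0. So did removal of the length trend with or without summed copies, and leaving out 1 library gave 0 to 1. The settings just named that gave 0 with all libraries kept called 2.31% to 3.03% of all genes tested. A replicate block, given below, also gave 0 and called 1.28%. Leaving out 1 library called 1.15% to 4.45%. With PT-91 (7 genes), limma-voom gave 2, a fit of all 16 libraries gave 8, and removal of the length trend gave 4 with or without summed copies. Leaving out PT-91 replicates 1 and 2 gave 2, leaving out PT-91 replicates 3 and 4 gave 10, and leaving out 1 library gave 1 to 12. Of all genes tested, limma-voom called 3.77%, the fit of all 16 libraries 6.87% and removal of the length trend 6.2% (7.19% with summed copies). Leaving out PT-91 replicates 1 and 2 called 1.72%, leaving out PT-91 replicates 3 and 4 called 17.2%, and leaving out 1 library 2.79% to 11.8%. For PT-91 against A8535 (2 genes), leaving out the 3 libraries of the most mitochondrial reads gave 1. Leaving out PT-91 replicates 3 and 4 gave 8, and leaving out 1 library gave 0 to 9. In that order, these fits called 0.596%, 14.1% and 1.39% to 7.72% of all genes tested. The median log2 difference of members between PT-91 and A8535 (0.04) ran from −0.13 to 0.067 as single libraries were left out. Among the genes called, 1 direction reversed: snrpd3l with PT-91 was −0.070 without PT-91 replicates 1 and 2. Family medians reversed too as single libraries were left out: with A8535 those of the snRNP proteins (−0.21 to 0.49), SR proteins (−0.08 to 0.12), SF3 (−0.12 to 0.17) and hnRNPs (−0.27 to 0.02), and with PNX-20 that of the hnRNPs (−0.32 to 0.05). Settings that leave out several libraries, or sum copies and remove the length trend together, were chosen after seeing the data. Why the values moved was not tested.

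The replicate numbers were not taken as a pairing: 11 of 24 same-numbered pairs had a correlation of deviations over 0.1, and 11 correlated best with their own number. Among the treatments, all 6 pairs of replicates 3 and 4 did both (0.23 to 0.58), a hint from the data and not the design, whereas 3 of 12 pairs with control did. With a replicate block the counts were 0 with PNX-20, 0 with A8535, 4 with PT-91 and 1 for PT-91 against A8535. Of all genes tested, 1.58%, 1.28%, 4.45% and 2.27% were called in those fits. With the block, snrpd2 with PNX-20 (2.15, unadjusted p = 0.0673 in edgeR) and snrpa with A8535 (−0.68, unadjusted p = 0.0765) were not called. Counts of reads do not limit the common members, but the chromosomal rows of snrpf, hnrnph3 and hnrnpa3 are too low to compare.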
